A study of Mus musculus with 6 samples.

Results

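Endoplasmic reticulum (ER) folding and quality control genes were examined on 6 Affymetrix arrays hybridised with RNA of NIH3T3, a mouse fibroblast line that grows indefinitely in culture. The 32 genes were taken by symbol from a list of ER chaperones, oxidoreductases, translocon subunits, degradation factors and stress sensors, out of 18193 genes that the platform annotation names with a probe set of 1 symbol. All 32 had such a probe set, 81 in all, and each gene was read from its brightest one. All cells were clone M, a single clone with multiple insertions of lacO, the operator sequence recognised by the lac repressor, and the labels give the same culture conditions for all. In 3 samples, labelled tethered, the insertion lay at the nuclear periphery, and in 3, labelled untethered, it lay centrally in the nucleus. The labels give no agent that moves the insertion and no genomic position for it. They number the replicates 1, 2 and 3 in each group without saying whether the samples came from separate cultures, so p-values measure only how much these samples vary, and that variation may be technical.

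The ER is where secreted and membrane proteins enter the secretory pathway, are folded by chaperones, receive disulfide bonds and are inspected before export. Proteins that fail are drawn back to the cytosol and degraded. When unfolded protein accumulates, the sensors encoded by Atf6, Ern1 and Eif2ak3 start the unfolded protein response, which raises transcription of chaperone and degradation genes through ATF6 and spliced XBP1, and of ATF4 and CHOP targets through translational control. Fibroblasts make and export large amounts of collagen and fibronectin and depend on this machinery.

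The deposited values are linear intensities, and levels below are log2 intensities. Median intensity lay between 482.5 and 490.8 over the arrays. The correlation of arrays over 22518 tested probe sets ran from 0.92 to 0.987 within a group and from 0.928 to 0.991 between groups. All 8 fibroblast markers were brighter than the median probe set. The same held for 4 of 5 muscle, 3 of 5 endothelial, 2 of 5 epithelial, 2 of 5 macrophage and 1 of 4 plasma cell markers. Epcam (epithelial) lay at percentile 92.1 of all probe sets and Sdc1 (plasma cell) at 93.7. Both were above Pdgfrb, the dimmest fibroblast marker, at 86.6. The arrays numbered 1, 1 in each group, stood apart from the other 4 in earlier results on these data, and that is why the genes were also compared by number. The log2 difference of the 5' and 3' probe sets for the transferrin receptor is a control for RNA quality. It stood at -2.81 and -2.09 in untethered and tethered replicate 1 and at -3.07 in untethered replicate 2. In the other 3 arrays it lay between -1.67 and -1.52. The same difference for Gapdh was 0.038 and 0.095 in untethered and tethered replicate 1 and -0.060 in untethered replicate 2. In the other 3 it was 0.076 to 0.088. For actin it was -0.31 and -0.29 in untethered and tethered replicate 1, -0.56 in untethered replicate 2 and -0.15 to -0.10 in the other 3. The mean log2 intensity of the 8 fibroblast markers was 12.66 and 12.99 in the arrays numbered 1 and between 13.11 and 13.26 in the others. Of these markers Col1a1, Col3a1, Vim, Thy1 and S100a4 were lower in both arrays numbered 1, while Col1a2, Fn1 and Pdgfrb overlapped between numbers. Fn1 stood at 14.00 and 13.61 in untethered and tethered replicate 1 against 13.64 to 13.87. The mean of the 5 epithelial markers was 8.94 to 9.07 in the arrays numbered 1 and 8.69 to 8.76 in the others. Cdh1, one of the epithelial markers, stood at 7.12 and 7.80 in the arrays numbered 1 and between 5.96 and 6.72 in the others, and its probe set lay at percentile 8.01 of all probe sets. The other epithelial markers did not all follow it. Cldn4 was also higher in the arrays numbered 1, at 10.24 and 10.34 against 10.03 to 10.23. Krt8 was lower, at 8.79 and 8.83 against 8.85 to 8.94, and Epcam and Krt18 overlapped between numbers. The means of the endothelial, macrophage and muscle lists overlapped between the numbers, and the plasma cell list was 8.87 to 8.89 against 9.04 to 9.22. In that list Sdc1 stood at 10.90 and 10.78 in the arrays numbered 1 against 11.77 to 12.15, Prdm1 stood at 8.98 and 8.92 against 8.67 to 8.82, and Jchain and Cd79a overlapped between numbers. The part of RNA quality and of these markers in the results below was not tested. In RNA from a whole culture, fewer cells of a type and less RNA per cell cannot be told apart.

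Some members carry the ER stress response element, ERSE, in their promoters. The matched stretches are printed because this element occurs in genes of several roles described below. The ERSE is bound by ATF6 together with the CCAAT-binding factor NF-Y. Promoter windows of RefSeq (GRCm38.p6, 250 bases before to 50 after the gene start) matched 26 of the 32 members by symbol. Atf6, Derl1, Hyou1, Manf, Sec61a1 and Sil1 had no entry. The letters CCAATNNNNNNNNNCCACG, read on both strands, were found in 9 of the 26 members (34.6%), namely Calr, Canx, Creld2, Derl3, Dnajc3, Hsp90b1, Hspa5, Pdia6 and Syvn1, and in 0.137% of 27025 genes in the table. By promoter record the share was 0.119% of 32851. The related element ERSE-II, ATTGGNCCACG, was found in Herpud1 and Dnajb11 (2 of 26, against 0.0444% of all genes). In Dnajb11 it lay after the start and is not printed. The letters TGACGTGG, the core of the XBP1-binding element, were found in 0 of 26 members and 0.714% of all genes. The 2 parts of the ERSE occurred apart from it as well: CCAAT alone was present in 21 of 26 members (80.8%) against 41.1% of all genes, and CCACG in 21 of 26 against 35.5%. These shares overlap with the ERSE matches, and a match is a description of letters. The members were picked as ER folding and quality control genes, so a higher share than in all genes is no test. The stretches lie upstream of the start and run 5′ to 3′ along the gene's strand, with the ERSE or ERSE-II match in capitals.
Hspa5: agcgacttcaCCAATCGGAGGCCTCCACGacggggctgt
Dnajc3: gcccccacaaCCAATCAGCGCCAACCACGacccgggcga
Pdia6: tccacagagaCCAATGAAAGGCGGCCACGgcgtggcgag
Syvn1: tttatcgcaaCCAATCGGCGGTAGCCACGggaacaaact
Canx: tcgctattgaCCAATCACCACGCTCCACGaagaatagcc
Calr: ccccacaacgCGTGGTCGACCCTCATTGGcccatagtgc
Creld2: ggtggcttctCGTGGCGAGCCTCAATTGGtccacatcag
Herpud1: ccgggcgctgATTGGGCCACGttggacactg
The Hspa5 stretch is chr2:34772015-34772053 on the plus strand, the Dnajc3 stretch chr14:118937817-118937855 (plus), the Pdia6 stretch chr12:17266481-17266519 (plus) and the Syvn1 stretch chr19:6046522-6046560 (plus). The Canx stretch is chr11:50325790-50325828 (minus), the Calr stretch chr8:84847065-84847103 (minus), the Creld2 stretch chr15:88819510-88819548 (plus) and the Herpud1 stretch chr8:94386367-94386397 (plus). In Calr and Creld2 the element reads on the opposite strand, so that its letters appear as CGTGG and ATTGG. Hsp90b1 held 2 ERSE matches, 1 on each strand, from -212 to -194 and from -107 to -89 relative to the start.

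The first comparison, tethered against untethered, addresses the question of the study, whether bringing genomic regions to the inner nuclear membrane changes transcription. None of the ER genes passed the test. Of the 32 members, 31 had a brightest probe set above the median of all probe sets and were tested, and Derl3, which encodes a degradation factor, did not (8.79 to 9.06 over the 6 arrays). The largest difference was that of Creld2, which encodes an ER oxidoreductase induced by stress. It stood at 12.12, 11.91 and 10.94 in untethered replicates 1, 2 and 3 and at 12.01, 10.54 and 11.08 in tethered replicates 1, 2 and 3. The log2 difference, tethered minus untethered, was -0.45 (SE 0.46). The groups overlapped, with untethered replicate 3 below tethered replicates 1 and 3.

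Hspa5, which encodes BiP, the main Hsp70 chaperone of the ER, stood at 14.07, 14.00 and 13.28 in untethered and 14.19, 13.36 and 13.39 in tethered replicates 1, 2 and 3. Its difference was -0.14 with a 95% interval from -0.89 to 0.61. Each group held high and low arrays. For Xbp1, which encodes the transcription factor activated by splicing, the difference was -0.050 (interval -0.81 to 0.71). For Pdia4, a disulfide isomerase, it was -0.18 (interval -1.68 to 1.32). The group model had no term for the replicate number, so these intervals include the spread between numbers. The SD of the member mean over arrays was 0.31 beside the group and 0.14 beside group and number. For Pdia4 tethered minus untethered was -0.057, -0.48 and 0.0033 at numbers 1, 2 and 3. The narrowest intervals belonged to genes whose arrays lay close together, such as Os9, a lectin that hands misfolded glycoproteins to degradation, at -0.0023 (interval -0.15 to 0.14). Limma called 0 of 31 members at an adjusted p under 0.05, as it called 0 of 22518 probe sets (0%). At an unadjusted p under 0.05 the count was 0 of 31 members, against 2.44% of the 11846 genes tested. The smallest unadjusted limma p of a member was 0.341, for P4hb. In 0 of 31 members did the groups not overlap, against 8.40% of genes. The median difference of the members was -0.063 and that of all genes -0.022. The member median was 0.077 without tethered replicate 2 and 0.051 without untethered replicate 1, and -0.24 without tethered replicate 1. After quantile normalization it was -0.00081, with 15 of 31 differences above 0 in place of 9. The median of all genes moved as well, to 0.0065. Before that normalization 4883 of 11846 genes were above 0.

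The second comparison set the arrays numbered 1 against those numbered 2 and 3, with the group as a term. The disulfide isomerases Pdia4, Pdia6 and Pdia3, the BiP cofactors Dnajb9, Dnajc3 and Sdf2l1, and the degradation genes Herpud1, Sel1l, Derl1 and Syvn1 were higher in both arrays numbered 1, by 1.37-fold to 2.92-fold. Ssr1, a subunit of the translocon-associated protein complex, was lower. Limma called 10 of 31 members higher at an adjusted p under 0.05, where 1.41% of the 11846 genes were called higher, and 1 of 31 lower, where 8.72% were called lower. Over probe sets, 9.86% were called in either direction. The median difference was 0.41 for the members and -0.026 for all genes. In 22 of 31 members both arrays numbered 1 lay above the other 4, against 12.0% of genes, and in 2 of 31, Ssr1 and Dnajc10, they lay below, against 25.0%. Because the split was made with earlier results of the same arrays known, its p-values describe these arrays and no others. What the number stands for is not in the labels.

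The call counts changed with single arrays. Without tethered replicate 1, 0 of 31 members were called (Pdia4, limma adjusted p = 0.107), with a member median of 0.30, and 1 probe set was called over the whole array. Without tethered replicate 3 limma called 1 member higher, without untethered replicate 3 it called 5, and without untethered replicate 2 it called 17. Of all 22518 probe sets, 23, 129 and 822 were called higher in these fits, so the counts over the whole array moved as well. The member median ran from 0.30 to 0.54 with 1 array left out. After quantile normalization 18 members were called higher and 0 lower, and the share of calls that were higher over all probe sets was 36.0% in place of 16.1%.

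**Figure D1:**
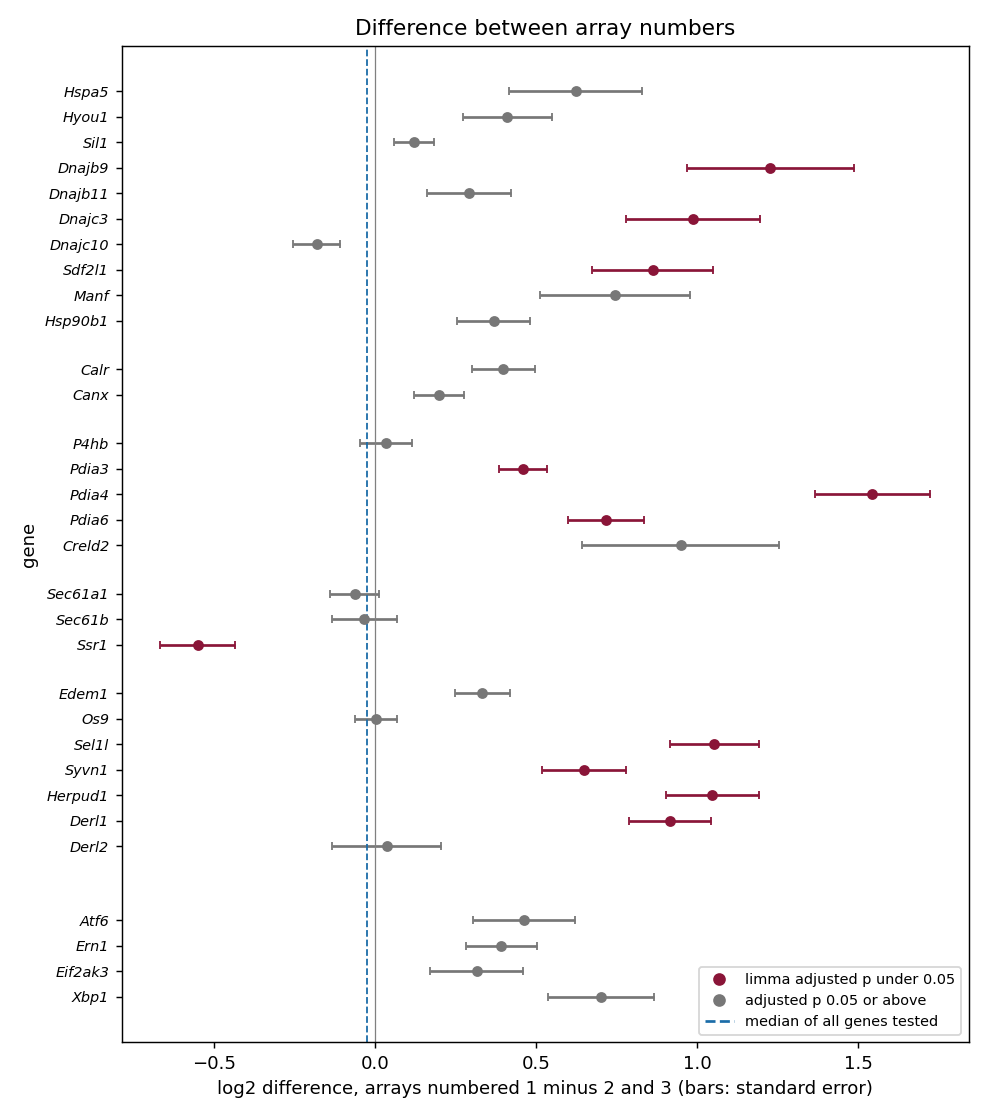
Log2 difference of each tested member between the arrays numbered 1 and those numbered 2 and 3 (points; bars are standard errors), grouped by role, with calls at a limma adjusted p under 0.05 in dark red. The 10 genes called higher run from Pdia3 at 0.46 to Pdia4 at 1.54, Ssr1 is called lower at -0.55, and the dashed line is the median of all genes tested, -0.026.

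Among the chaperones and BiP cofactors, 3 of 10 were called higher and 8 of 10 had both arrays numbered 1 above the others. Dnajb9, which encodes the BiP cochaperone ERdj4, stood at 11.19, 10.62 and 10.52 in untethered replicates 1, 2 and 3 and at 11.96, 10.06 and 10.19 in tethered replicates 1, 2 and 3. Tethered replicate 1 was the highest array and tethered replicates 2 and 3 the lowest. Its difference between numbers was 1.23 (SE 0.26; limma adjusted p = 0.0411), or 2.34-fold. It ran from 0.62 without tethered replicate 1 to 1.83 without untethered replicate 1. Dnajc3, which encodes p58IPK, a cochaperone that also inhibits PERK, stood at 11.06, 10.55 and 10.42 in untethered and 11.49, 9.90 and 10.30 in tethered replicates. Both arrays numbered 1 lay above the other 4, and the difference was 0.99 (SE 0.21; limma adjusted p = 0.041), or 0.58 without tethered replicate 1. Dnajc3 is among the members with an ERSE in the stretch printed above.

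Sdf2l1, a BiP-associated component that binds ERdj cochaperones, stood at 12.11, 11.77 and 11.19 in untethered and 12.29, 11.13 and 11.26 in tethered replicates. Untethered replicate 2 lay between the arrays numbered 1 and the other 3. The difference was 0.86 (SE 0.19; limma adjusted p = 0.0443). Hspa5, with the values given above, had a difference of 0.62 (SE 0.21; limma adjusted p = 0.122), and the arrays numbered 1 lay above the others by a small margin, since untethered replicate 2 reached 14.00. Without that array the Hspa5 difference was 0.80 (limma adjusted p = 0.00743).

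Manf, a secreted ER stress protein that binds BiP, stood at 13.09, 12.95 and 12.46 in untethered and 13.38, 12.04 and 12.49 in tethered replicates, with a difference of 0.74 (SE 0.23; limma adjusted p = 0.107), or 0.38 without tethered replicate 1 and 1.11 without untethered replicate 1. Hyou1, the large Hsp70 relative that exchanges nucleotide on BiP, gave 0.41 (SE 0.14), Hsp90b1, which encodes GRP94, 0.37 (SE 0.11), and Dnajb11, the cochaperone ERdj3, 0.29 (SE 0.13). None of these passed the test on the brightest probe set. Sil1, the other nucleotide exchange factor of BiP, had 10.38, 10.24 and 10.25 in untethered and 10.42, 10.29 and 10.32 in tethered replicates, a difference of 0.12 (SE 0.063). Dnajc10, the reductase ERdj5, was the member of this group with both arrays numbered 1 below the others, at 11.31 and 11.34 against 11.42 to 11.57 (difference -0.18, SE 0.073, limma adjusted p = 0.188).

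**Figure D2:**
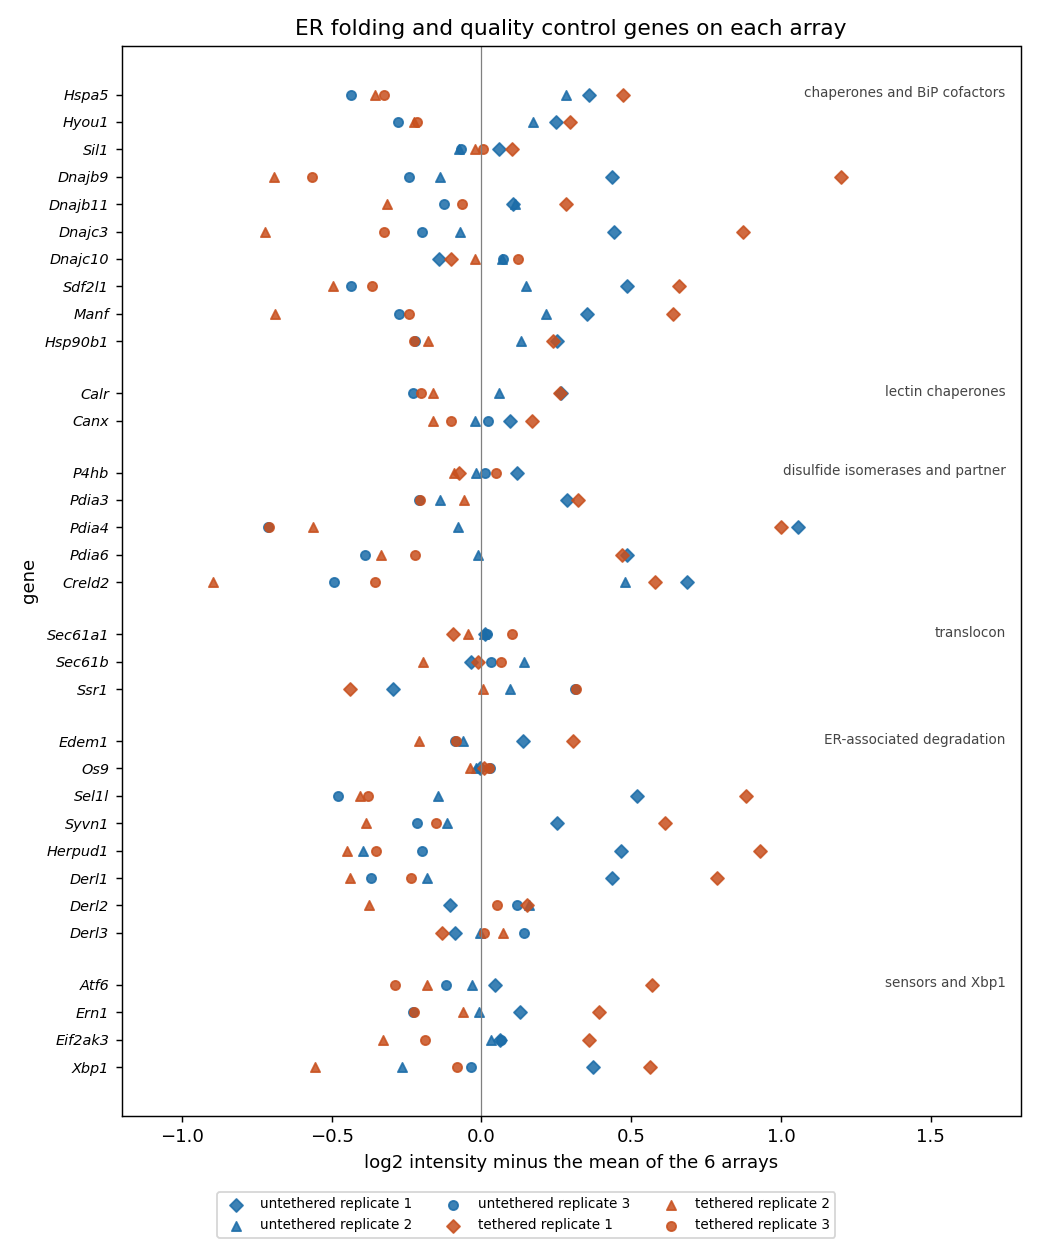
Log2 intensity of each of the 32 members on each array, minus its mean over the 6 arrays, grouped by role (blue untethered, orange tethered; diamonds replicate 1, triangles replicate 2, circles replicate 3). Diamonds of both colours lie to the right for most chaperone, isomerase and degradation genes, and to the left for Ssr1 (12.03 and 11.88 against 12.33 to 12.64).

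The lectin chaperones hold glycoproteins in the calnexin cycle, and neither passed the test. Calr, which encodes calreticulin, stood at 14.08, 13.87 and 13.58 in untethered and 14.07, 13.65 and 13.61 in tethered replicates. The difference was 0.40 (SE 0.098; limma adjusted p = 0.0598). Canx, which encodes calnexin, gave 0.20 (SE 0.077; limma adjusted p = 0.177), and both arrays numbered 1 lay above the others for both genes. Both carry an ERSE.

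Of the 4 disulfide isomerases and Creld2, 3 of 5 were called higher. Pdia4, which encodes ERp72, had the largest difference of all members. It stood at 13.46, 12.33 and 11.70 in untethered and 13.41, 11.85 and 11.70 in tethered replicates 1, 2 and 3. The arrays numbered 1 were nearly equal and lay more than 1 log2 unit above every other array, and those numbered 3 were equal to 2 decimals. The difference was 1.54 (SE 0.18; limma adjusted p = 0.0103), or 2.92-fold, and it ran from 1.42 to 1.69 with 1 array left out.

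Pdia6, an isomerase that also acts on the sensor IRE1, stood at 13.06, 12.56 and 12.19 in untethered and 13.05, 12.24 and 12.36 in tethered replicates, with a difference of 0.72 (SE 0.12; limma adjusted p = 0.022). Pdia3, the isomerase that works with calnexin and calreticulin, stood at 13.70, 13.28 and 13.21 in untethered and 13.74, 13.36 and 13.21 in tethered replicates, with a difference of 0.46 (SE 0.075; limma adjusted p = 0.0216). For both genes the 2 arrays numbered 1 lay close together and above the other 4. Creld2 gave 0.95 (SE 0.31; limma adjusted p = 0.114), with untethered replicate 2 near the arrays numbered 1. P4hb, which encodes the founding protein disulfide isomerase and a subunit of collagen prolyl hydroxylase, lay within 13.55 to 13.76 on all arrays, with a difference of 0.035 (SE 0.081).

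ER-associated degradation had 4 of 7 tested genes called higher. Herpud1, a stress-induced scaffold of the degradation complex, stood at 12.38, 11.52 and 11.72 in untethered and 12.84, 11.46 and 11.56 in tethered replicates, a difference of 1.05 (SE 0.14; limma adjusted p = 0.0144). Sel1l, the adaptor of the HRD1 ubiquitin ligase, stood at 11.93, 11.27 and 10.94 in untethered and 12.30, 11.01 and 11.04 in tethered replicates, a difference of 1.05 (SE 0.14; limma adjusted p = 0.0131). In both genes tethered replicate 1 was the highest array, untethered replicate 1 the next, and the other 4 arrays lay apart from them.

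Syvn1, which encodes HRD1 itself, gave 0.65 (SE 0.13; limma adjusted p = 0.0362; 0.42 without tethered replicate 1), from 11.43, 11.06 and 10.96 in untethered and 11.79, 10.79 and 11.03 in tethered replicates. Derl1, which encodes a rhomboid-like protein of the same complex, gave 0.92 (SE 0.13; limma adjusted p = 0.0144), from 11.63, 11.01 and 10.82 in untethered and 11.98, 10.75 and 10.96 in tethered replicates. The members that passed thus included the ligase, its adaptor, Derl1 and Herpud1. Derl2, a relative of Derl1, did not pass (0.036, SE 0.17), nor did the lectins Edem1 (0.33, SE 0.085; limma adjusted p = 0.0658) and Os9. On its brightest probe set Os9 lay within 11.33 to 11.40 on all 6 arrays. Herpud1 carries the ERSE-II and Syvn1 the ERSE printed above.

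None of the 3 sensors nor Xbp1 passed. Xbp1 stood at 12.40, 11.76 and 11.99 in untethered and 12.59, 11.47 and 11.94 in tethered replicates, with both arrays numbered 1 above the others and a difference of 0.70 (SE 0.16; limma adjusted p = 0.0527). Its probe sets measure the gene's RNA, and splicing by IRE1 was not measured. Ern1, which encodes IRE1 alpha, gave 0.39 (SE 0.11; limma adjusted p = 0.0831). Atf6 stood at 10.21, 10.14 and 10.05 in untethered and 10.74, 9.99 and 9.88 in tethered replicates, and Eif2ak3, which encodes PERK, at 10.01, 9.98 and 10.01 in untethered and 10.30, 9.62 and 9.76 in tethered replicates. For both, tethered replicate 1 was high while untethered replicate 1 lay close to the other untethered arrays.

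The 3 translocon genes, whose products let nascent chains into the ER, held no call above 0. Ssr1 stood at 12.03, 12.42 and 12.64 in untethered and 11.88, 12.33 and 12.64 in tethered replicates, and fell by 0.55 (SE 0.12; limma adjusted p = 0.0407). After quantile normalization the Ssr1 difference was -0.37 and no longer called (limma adjusted p = 0.0696). Sec61a1, the channel subunit, gave -0.063 (SE 0.077), and Sec61b, its small partner, -0.034 (SE 0.10), and both turned above 0 after quantile normalization, to 0.13 and 0.16.

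Shifts by number were also read within each group. In tethered cells replicate 1 lay above the mean of replicates 2 and 3 by a median of 0.54 over the 31 members (all genes, -0.022), and in untethered cells by a median of 0.30 (all genes, -0.043). For Pdia4 the shifts were 1.63 and 1.45, for Pdia3 0.46 and 0.46, for Herpud1 1.33 and 0.76, and for Dnajb9 1.83 and 0.62, in tethered and untethered cells. In 26 of 31 members the shift was larger in tethered cells, against 6820 of 11846 genes. A test of the difference between the shifts, an interaction term chosen after seeing the data, called 0 of 31 members and 0 of 22518 probe sets (0%) with limma. The smallest adjusted p among members was 0.566, for Dnajb9, and 5 of 31 members had an unadjusted p under 0.05, against 594 of 11846 genes.

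Untethered replicate 2 stood above its neighbours for many members. In 20 of 31 members it lay above the other 3 arrays numbered 2 and 3, against 36.2% of genes. It exceeded the next of them by 0.61 for Hspa5 and 0.83 for Creld2. It was also the array where the transferrin receptor control was lowest (-3.07), and the part of RNA quality in these values was not tested. Tethered minus untethered was also read at each number. At number 1 the median over the members was 0.11, with 23 of 31 above 0 (all genes, 0.0059). At number 2 it was -0.27, with 2 of 31 above 0 (all genes, -0.060). At number 3 it was 0.027, with 21 of 31 above 0 (all genes, -0.0044). Over all 11846 genes the counts above 0 were 6128, 4592 and 5741 at numbers 1, 2 and 3. For Creld2 the differences were -0.11, -1.37 and 0.14, and for Manf 0.29, -0.91 and 0.035, at numbers 1, 2 and 3. These are differences between 2 arrays each and have no replicate.

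**Figure D3:**
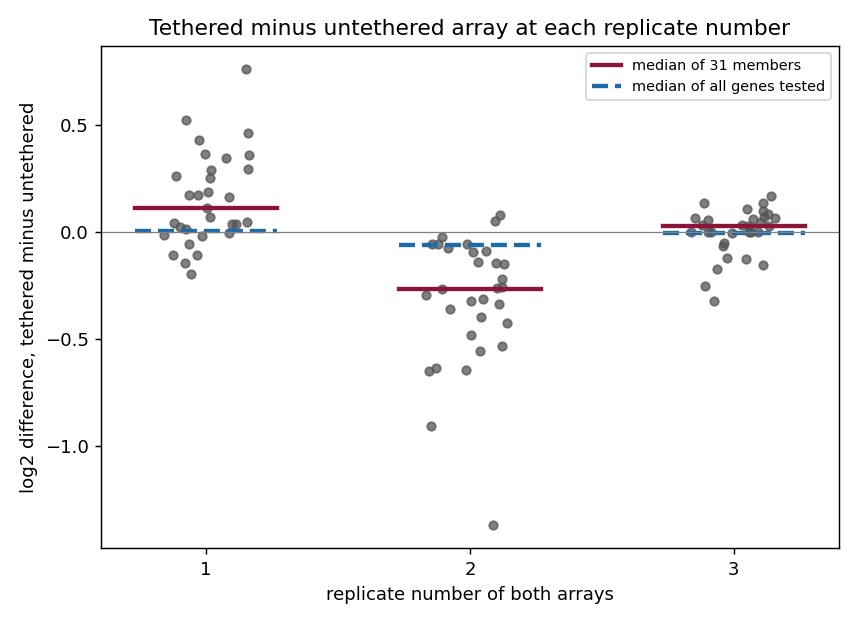
Log2 difference between the tethered and the untethered array of the same replicate number for the 31 tested members (points), with the member median (solid) and the median of all genes tested (dashed). The member medians are 0.11, -0.27 and 0.027 at numbers 1, 2 and 3, and the lowest point at number 2 is Creld2 at -1.37.

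Averaged by role, the mean deviation from the 6-array mean was highest in the arrays numbered 1 for every role but the translocon. For the disulfide isomerases with Creld2 it was 0.53 and 0.46 in untethered and tethered replicate 1 and 0.046 in untethered replicate 2, and it lay between -0.39 and -0.29 in the other 3 arrays. For the 8 degradation genes, Derl3 included, it was 0.24 and 0.53 in the arrays numbered 1 and -0.11 in untethered replicate 2. Untethered replicate 2 thus lay below both arrays numbered 1 and above the other 3 arrays, which stood between -0.33 and -0.16. For the chaperones its mean was 0.085, against 0.26 and 0.47 in the arrays numbered 1 and -0.37 to -0.22 in the other 3.

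**Figure D4:**
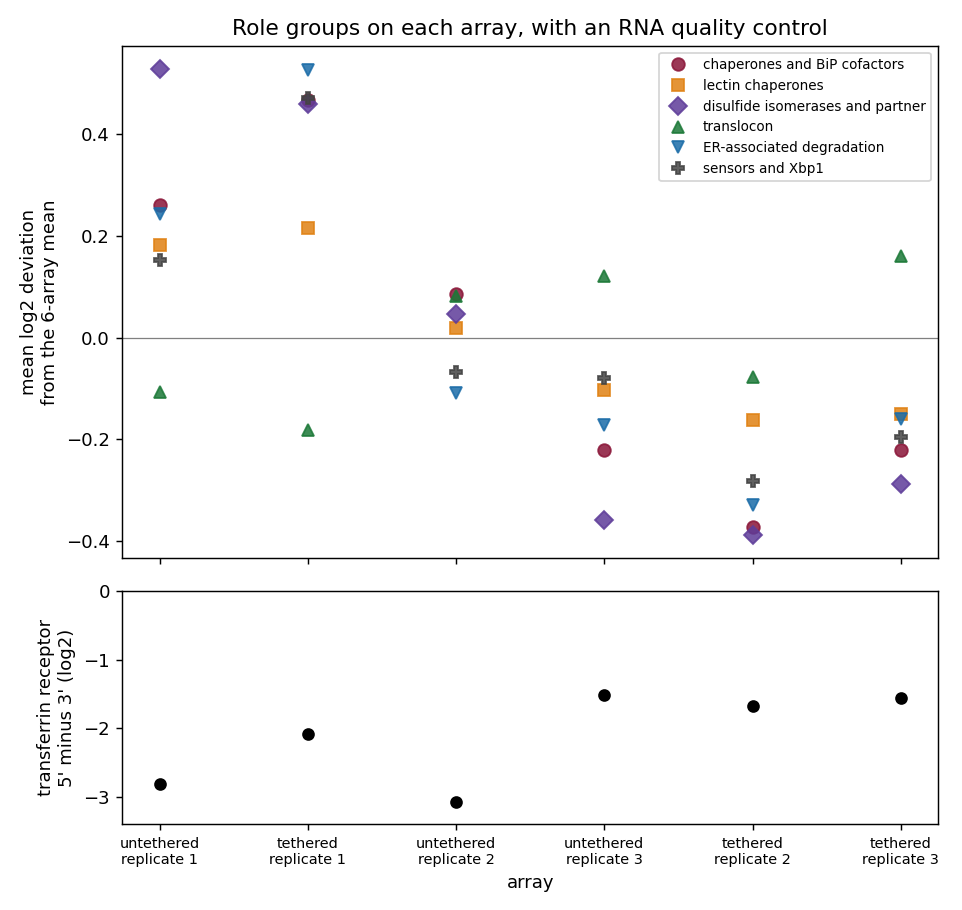
Upper panel: mean log2 deviation of each role group from its 6-array mean on each array. Lower panel: log2 difference of the 5' and 3' transferrin receptor probe sets on the same arrays. It is lowest in untethered replicates 2 (-3.07) and 1 (-2.81), while the isomerase and degradation means are highest in the arrays numbered 1.

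Neighbouring parts of the secretory pathway, read from 6 further lists with 76 tested genes, held 5 genes called higher and 2 called lower, with a median difference between numbers of -0.018. The shares were 6.58% higher and 2.63% lower, against 1.41% and 8.72% of all genes. Among 14 other folding genes 1 was called higher, Ero1a, the oxidase that recharges disulfide isomerases. It stood at 12.42, 11.85 and 10.70 in untethered and 12.47, 10.77 and 10.87 in tethered replicates, a difference of 1.40 (SE 0.31; limma adjusted p = 0.0476). The list median was 0.13, with Txndc5, another isomerase, lowest at -0.29. Among 13 translocation and signal peptidase genes 0 were called (median -0.075), from Ssr2, a partner of Ssr1, at -0.35 to Spcs2, a signal peptidase subunit, at 0.32. At an unadjusted limma p under 0.05 this list held 1 gene, Ssr2, where 26.7% of all genes tested passed that level.

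Among 12 N-glycosylation genes 0 were called (median -0.098), from Mogs, the first glucosidase, at -0.63 to Rpn1, an oligosaccharyltransferase subunit, at 0.40. At an unadjusted limma p under 0.05 it also held 1 gene, Mogs. Of 12 other degradation genes 1 was called lower, Vcp, the ATPase that extracts substrates from the membrane, at -0.59 (SE 0.084; limma adjusted p = 0.0151), while Herpud2, the relative of Herpud1, stood at 0.68 (limma adjusted p = 0.0716). Of 10 traffic genes 1 was called lower, Kdelr2, a receptor that returns escaped chaperones to the ER, at -0.53 (SE 0.093; limma adjusted p = 0.0252), and the highest was Tmed10 at 0.13. In this list 9 of 10 differences were below 0, as were 6737 of 11846 over all genes.

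Regulators of the stress response included differences above those of any member. Of 15 genes 4 were called higher, Atf3, Ddit3, Trib3 and Ppp1r15a, of which all but Atf3 were named after their values were seen. Ddit3, which encodes CHOP, stood at 12.32, 10.86 and 9.87 in untethered and 13.23, 9.71 and 9.68 in tethered replicates, a difference of 2.74 (SE 0.41; limma adjusted p = 0.0177). Atf3, a stress-induced transcription factor, gave 2.76 (SE 0.39; limma adjusted p = 0.0146), Trib3, a pseudokinase induced by CHOP, 1.61 (SE 0.17; limma adjusted p = 0.00897), and Ppp1r15a, which encodes the phosphatase subunit GADD34, 1.86 (SE 0.40; limma adjusted p = 0.0419). The median of the list was 0.14, and Creb3l2, an ER-bound transcription factor, was lowest at -0.24. Between the groups, 0 of the 76 genes were called by limma and 1 had an unadjusted p under 0.05, Nfe2l2, which encodes the oxidative stress factor NRF2, at -0.18 (named after its value was seen). Atf3 (-0.55) and Creb3l2 (0.15) stood at the ends of the stress list. The group differences ran from -0.29 (Ero1a) to 0.077 (Serpinh1, the collagen chaperone) among the folding genes. They ran from -0.29 (Sec11c) to 0.056 (Spcs2) among the translocation genes and from -0.23 (Stt3a) to 0.047 (Ostc) among the N-glycosylation genes. Among the degradation genes the ends were Ubxn4 at -0.21 and Ufd1 at 0.11, and among the traffic genes Lman1 at -0.19 and Sec24d at 0.077.

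**Figure D5:**
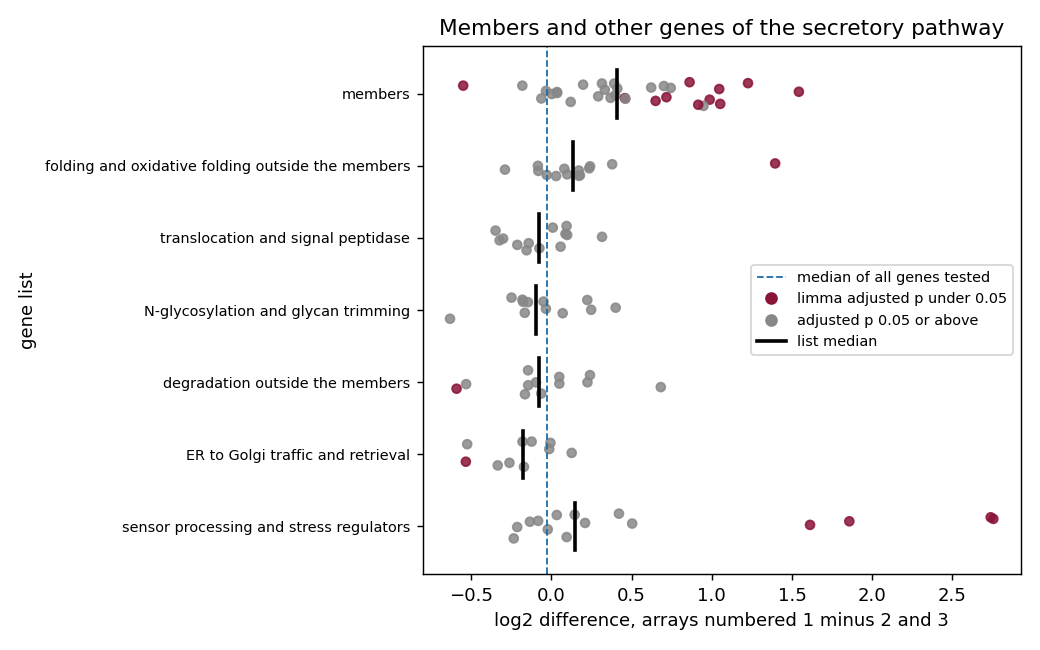
Log2 difference between the arrays numbered 1 and those numbered 2 and 3 for the members and for 6 other lists of the secretory pathway (points; dark red, limma adjusted p under 0.05; black bars, list medians; dashed line, median of all genes tested). The member median is 0.41, and the medians of the other lists lie between -0.18 and 0.14, with Atf3 and Ddit3 furthest to the right.

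Members with and without the ERSE overlapped in their differences between numbers. The 8 tested genes with the element ran from 0.20 (Canx) to 0.99 (Dnajc3), with a median of 0.64, and 3 of the 8 were called higher. The 17 tested genes whose window lacked it ran from -0.55 (Ssr1) to 1.54 (Pdia4), with a median of 0.33. Of the 17, 6 were called higher: Pdia3, Pdia4, Dnajb9, Sdf2l1, Sel1l and Herpud1, the last with an ERSE-II.

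Several genes had probe sets that differed. Of 72 tested member probe sets, 58 had a difference between numbers above 0. By the brightest probe set alone it was 27 of 31 members, against 5109 of 11846 genes. Limma called 21 of the 72 higher and 2 lower, where 1.59% and 8.27% of all probe sets were called. Counting a gene as called when any of its probe sets was, 13 members were higher, against 2.34% of genes, adding Calr, Hsp90b1 and Hyou1, and 1 member was lower, against 11.0% of genes. The dimmer Hsp90b1 probe set gave 0.65 (limma adjusted p = 0.00862) against 0.37 on the brighter, and the 3 probe sets of Hyou1 gave 0.41, 0.72 and 1.22. For Herpud1 they gave 1.05 and 1.79. Derl2 likewise gave 0.036 on the brighter and 0.60 on the dimmer probe set. Os9 gave 0.0023 on the brighter and 0.30 on the dimmer (limma adjusted p = 0.0851), where both arrays numbered 1 lay above the others. Others were smaller on the dimmer probe sets: Pdia6 gave 0.72 and -0.014, and Ern1 0.39, -0.023 and 0.035 on its 3 tested probe sets. The 6 probe sets of Sec61a1 ran from -0.32 to 0.033.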

How the data were processed

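Total RNA from 6 samples of clone M was extracted with Trizol, biotin-labelled and hybridised, per the labels' protocols. The deposited file holds 1 intensity per probe set and array on a linear scale, as the authors processed it. For the summarising software and the scaling, the sources used here say nothing. Gene symbols came from the platform's annotation table and were brought up to date by gene identifier with RefSeq (GRCm38.p6). Of 45037 probe sets that are not controls, 34945 had 1 symbol, 932 several and 9160 none.

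Intensities were floored at 16 and log2 was taken. Probe sets with a mean above the median of all were tested (22518, for 11846 genes) with limma 3.58.1 in R 4.3.3 over all 6 arrays. The group model had no covariate, and the number model had the group as covariate. P-values were adjusted by Benjamini-Hochberg over all probe sets and called under 0.05, two-sided. The code was tested on simulated data. Errors are limma's standard errors (SE), and intervals are 95%. The number of arrays limits the precision. Each group holds 3 arrays.

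The genes named were all members, cell type markers and, of each further list, those at either end in each comparison. A further 4 genes of these lists were named after their values were seen. The members and lists were chosen with earlier results of these data known. Alternatives covered scaling, floor, filter, variance model, probe set choice, the replicate number and single arrays.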

Additional observations from a re-analysis of the deposited data

Results flagged for a closer look

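Among the 4 arrays numbered 2 and 3, untethered replicate 2 stood far above the other 3 for 3 of the 31 tested members. Chance would mark about 1 in 20 genes for any of the 4 arrays in either direction, and fewer for 1 named array lying above. This array was named after its values were seen. Over all 11846 genes tested, 6.26% had 1 of these arrays as far from the other 3, and in 1.34% it was untethered replicate 2 lying above. For Hspa5 it stood at 14.00 with the next array at 13.39 and the lowest at 13.28, so that the gap made up 0.847 of the range. For Hyou1 it stood at 12.41 against 12.02 and 11.96 (0.860 of the range), and for Hsp90b1 at 13.87 against 13.56 and 13.51 (0.873 of the range). All 3 encode chaperones of the ER lumen, and the transferrin receptor control was lowest on the same array (-3.07). Groups of 3 arrays were not searched for such samples.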

How the results depend on the processing

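With 1 array left out the member median between groups ran from -0.24 to 0.077, turning above 0 without untethered replicate 1 (0.051) or tethered replicate 2 (0.077), and 0 probe sets were called throughout. Of 31 members, 26 changed the sign of their difference between groups in 1 or more alternatives, and all 31 were uncalled in each. Between array numbers the count of called probe sets ran from 1 to 2842 with 1 array left out, and lay at 851 without untethered replicate 1, 940 without untethered replicate 3, 557 without tethered replicate 3 and 1 without tethered replicate 1. The cause was not tested. Each such fit has 1 array fewer, as have those without untethered replicate 2 (2842) and tethered replicate 2 (2198). With all 6 arrays the count was 2220. The member median kept its sign in every alternative run, and 5 of 31 members changed sign in 1 or more. With no filter on low intensities 6 members were called higher, as were 196 of the 45037 probe sets then tested. After the array-wise quantile normalization the members called higher were 18, with all genes called higher at 4.05%. Deviations from the group means correlated at 0.71, 0.075 and 0.71 between arrays of the same number 1, 2 and 3, and at -0.77 to 0.36 between arrays of different numbers. As number 2 gave under 0.1, the numbers were not taken to pair the samples. With a replicate block limma called 0 probe sets between groups and 2383 of 22518 between numbers, 336 of them higher. In that fit 7 members were called higher. Dnajb9, Dnajc3, Sdf2l1 and Syvn1 were not called (limma adjusted p 0.0521 to 0.0624) and Xbp1 was (0.0285). Few arrays limit all of these counts.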
